A study of Mus musculus with 24 samples.

Results

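Expression was followed for 10 genes that mark enteroendocrine cells of the mouse gut, taken by name from a deposited table of 36528 genes. All 10 were found, and all 10 passed the filter on low counts that left 17468 genes for testing. They were 7 hormones and secretory products (Chga, Chgb, Pyy, Cck, Nts, Tac1 and Tph1) and 3 lineage factors (Neurog3, Neurod1 and Insm1). RNA was sequenced from cells sorted out of small-intestine tumours of the AKVPL genotype, 24, 48 or 96 h after diphtheria toxin (DT) or saline. Each of the 6 groups (DT 24 h, saline 24 h, DT 48 h, saline 48 h, DT 96 h and saline 96 h) held 4 libraries, 24 in all. From what is known of the study, the genotype includes a Cre recombinase driven by the villin promoter of intestinal epithelium and a diphtheria toxin receptor placed in the Lgr5 gene. All groups, saline included, carry the same genotype, and DT kills cells that express Lgr5, a receptor of intestinal stem cells. The names of the samples include EpCAM, a surface protein of epithelium, with the sort given as bulk. Host strain, like age and sex, is not given in the sources used here. The labels do not say whether libraries of a group come from different animals, so p-values reflect only how these libraries spread, and that spread may be technical.

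Enteroendocrine cells are rare, scattered cells of the gut epithelium that sense the contents of the lumen and release peptide hormones or serotonin from dense-core granules. They arise from crypt progenitors that switch on the transcription factor Neurog3 for a short time, followed by Neurod1 and Insm1, which keep the endocrine programme running. Mature cells differ in the hormones they carry and share the granule proteins chromogranin A and chromogranin B.

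Total counts per library were 10.9 to 27.7, in units of 1e6 counts. Lgr5 fell after DT at each time, to a mean of 81.4 counts per 1e6 counts (CPM) at 24 h, against 199.8 CPM in saline, by 1.30 on the log2 scale, and by 0.60 at 48 h and 0.43 at 96 h (edgeR adjusted p 4.44e-08, 0.00272 and 0.0447). The call at 96 h was lost whichever of its 8 libraries was left out, with adjusted p between 0.0612 and 0.152, and that at 48 h was lost in a fit of the libraries of that time alone (-0.59, 0.0663). Replicate 3 of the DT group at 48 h stood apart from its group: its Lgr5 level was 171 CPM, inside the range of the saline libraries of that time, against 95.4 to 117 CPM in the other DT libraries. The members named at 48 h below are therefore also given without it, as is the number of genes called. The 7 epithelial markers summed to between 6760 and 9040 CPM in every library. Fibroblast markers were present as well, with summed levels of 2900 to 6670 CPM in DT and 3410 to 4000 CPM in saline at 24 h, 7030 to 11400 CPM in DT and 3610 to 7310 CPM in saline at 48 h, and 5380 to 9910 CPM in DT and 2750 to 9680 CPM in saline at 96 h. In bulk RNA of this kind, fewer cells of a type and less RNA per cell cannot be told apart.

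Levels between genes were compared on the deposited length-scaled values (size-factor-adjusted RPKM, here nRPKM). Chgb, encoding chromogranin B, was the most abundant member with a mean of 57.4 ± 30.9 nRPKM over the 24 libraries (SD), and it lay above Chga in all 24. Chga, encoding chromogranin A, followed at 29.4 ± 14.9 nRPKM and lay above Pyy in all 24 libraries. The peptide hormone genes Pyy (7.50 ± 3.25 nRPKM) and Cck (3.61 ± 2.42 nRPKM) came next, in that order in 23 of 24 libraries. Between 1.17 and 1.46 nRPKM lay Neurod1, Insm1, Tac1, Neurog3 and Tph1. Insm1 lay above Tac1 in 19 of 24 libraries. The other neighbours in that group changed places more often, Neurod1 exceeding Insm1 in 10 of 24 libraries, Tac1 exceeding Neurog3 in 14, and Neurog3 exceeding Tph1 in 10. Nts was lowest at 0.415 ± 0.20 nRPKM. The lineage factors thus stood at similar low levels, and the 2 granins stood far above every hormone gene among the 10 members.

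The start regions of the hormone genes Cck, Pyy and Tac1, on which the DT comparisons turn, and of the granin genes Chga and Chgb, whose levels ran in parallel over the libraries, are shown. Each runs from 250 bases before to 50 bases after the RefSeq start on GRCm38.p6, read 5′ to 3′ on the gene's strand. Capitals mark 2 motifs: CANNTG, the E box read by basic helix-loop-helix factors such as Neurog3 and Neurod1, and TGACG or its complement CGTCA, the core of the cyclic AMP response element. They lie at chr9:121495645-121495944 on the minus strand (Cck), chr11:102107783-102108082 minus (Pyy), chr6:7554811-7555110 plus (Tac1), chr12:102554691-102554990 plus (Chga) and chr2:132781392-132781691 plus (Chgb).
Cck: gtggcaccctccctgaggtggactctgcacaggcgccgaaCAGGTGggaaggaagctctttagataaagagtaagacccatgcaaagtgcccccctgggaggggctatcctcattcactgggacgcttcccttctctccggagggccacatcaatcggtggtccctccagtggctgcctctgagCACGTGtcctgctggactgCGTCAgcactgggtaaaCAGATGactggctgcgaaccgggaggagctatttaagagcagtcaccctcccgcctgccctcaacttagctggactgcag
Pyy: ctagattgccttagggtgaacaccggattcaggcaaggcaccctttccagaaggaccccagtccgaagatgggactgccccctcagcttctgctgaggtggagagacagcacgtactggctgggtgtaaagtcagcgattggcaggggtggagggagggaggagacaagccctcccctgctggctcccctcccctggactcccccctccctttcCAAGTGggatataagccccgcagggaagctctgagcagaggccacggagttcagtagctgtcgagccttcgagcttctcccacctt
Tac1: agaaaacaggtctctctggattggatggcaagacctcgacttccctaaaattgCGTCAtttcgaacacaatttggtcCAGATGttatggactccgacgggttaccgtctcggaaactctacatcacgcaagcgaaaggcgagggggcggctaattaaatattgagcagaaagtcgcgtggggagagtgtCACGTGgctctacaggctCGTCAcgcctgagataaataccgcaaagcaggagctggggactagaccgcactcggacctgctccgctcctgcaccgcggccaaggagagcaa
Chga: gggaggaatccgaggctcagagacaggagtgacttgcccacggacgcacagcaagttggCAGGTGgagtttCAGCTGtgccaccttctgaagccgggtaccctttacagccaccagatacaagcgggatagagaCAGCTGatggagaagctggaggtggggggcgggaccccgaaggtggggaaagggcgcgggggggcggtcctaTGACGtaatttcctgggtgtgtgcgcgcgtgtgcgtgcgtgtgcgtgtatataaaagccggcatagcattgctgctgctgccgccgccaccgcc
Chgb: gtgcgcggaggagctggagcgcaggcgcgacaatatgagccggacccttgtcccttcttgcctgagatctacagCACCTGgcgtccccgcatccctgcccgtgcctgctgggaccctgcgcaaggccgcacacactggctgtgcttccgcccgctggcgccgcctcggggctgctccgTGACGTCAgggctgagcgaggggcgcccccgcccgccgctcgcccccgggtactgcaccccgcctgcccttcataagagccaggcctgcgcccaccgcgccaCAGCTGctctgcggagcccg
CANNTG reads the same on both strands, and TGACG was searched on both. CANNTG occurred 3 times in the Cck and Chga windows, 2 times in those of Tac1 and Chgb and 1 time in that of Pyy. It is common, being present in 72.3% of 32851 RefSeq windows of the same length. TGACG occurred 1 time in the Cck and Chga windows, 2 times in those of Tac1 and Chgb and not in that of Pyy, against 20.8% of all windows with at least 1. The longer form TGACGT, which contains TGACG, was present in the Chga and Chgb windows and in 7.51% of all. In Chgb its 2 matches are the overlapping strands of 1 stretch. Of the 9 members with a window in the RefSeq table, 8 held CANNTG and 6 held TGACG in their first window, while Insm1 has none in that table. These are matches of letters and not sites of measured binding.

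**Figure D1:**
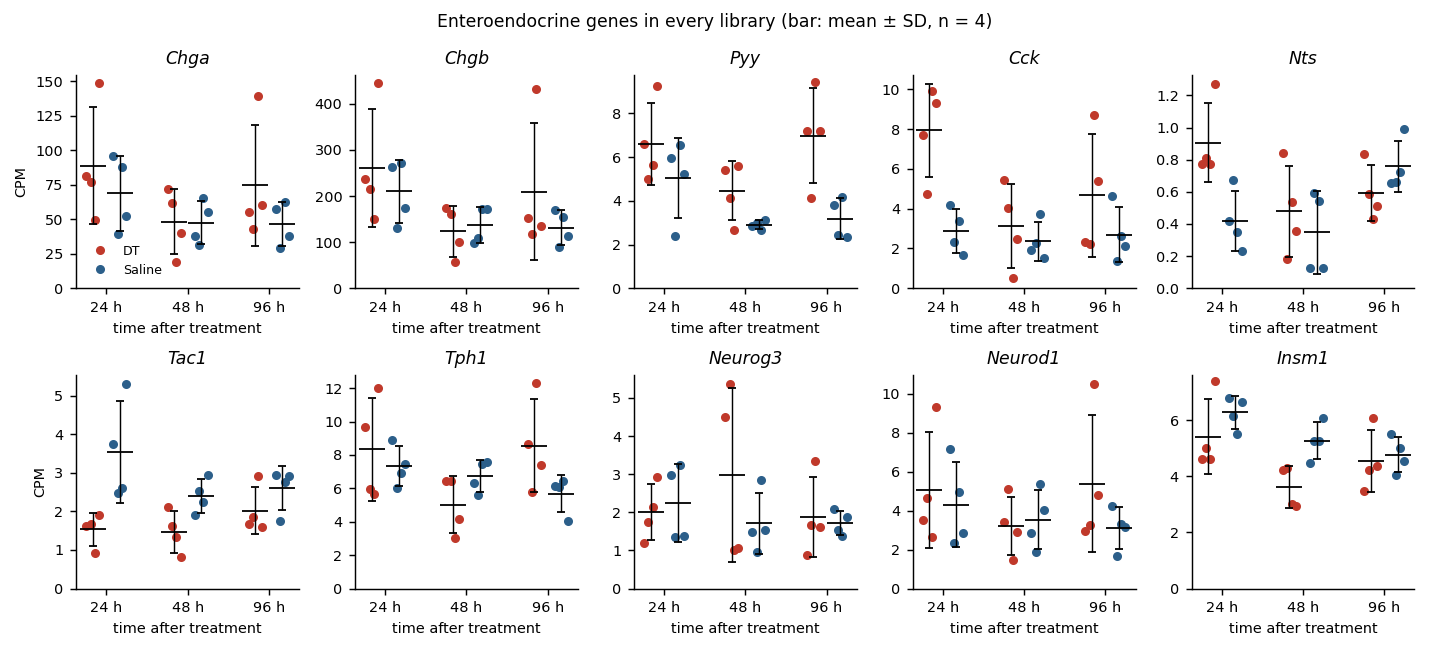
CPM of each of the 10 genes in every library at 24, 48 and 96 h (points), DT in red left of saline in blue, with a bar at the mean and whiskers of 1 SD (n = 4). Cck and Nts at 24 h sit higher in all DT libraries than in any saline library and Tac1 sits lower, while Chga, Chgb and Neurod1 each have 1 DT library far above the rest at 24 h and at 96 h.

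At 24 h after DT, 3 of the 10 genes passed the test, all of them hormone genes: Cck and Nts rose and Tac1 fell. The test was edgeR's quasi-likelihood test with Benjamini-Hochberg adjustment over all 17468 genes and a threshold of 0.05 (adjusted p below). It called 38.7% of all genes tested at 24 h, 19.9% as higher and 18.9% as lower in DT, so 3 of 10 is not more than the share among genes at large. The same 3 were those whose DT and saline libraries did not overlap, a property of 34.4% of all genes. None of the 3 lineage factors passed, and none had an unadjusted p under 0.05 by edgeR. DESeq2 called 2 of the 10 members and limma 3.

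Cck (Entrez 12424; chromosome 9, 121489824 to 121495694, GRCm38) encodes cholecystokinin, a hormone of the upper gut released after a meal that slows gastric emptying and triggers bile and pancreatic secretion. It had 7.71, 4.74, 9.94 and 9.34 CPM in the DT libraries at 24 h, against 4.16, 2.33, 3.39 and 1.70 CPM in saline. Every DT library lay above every saline library. The log2 fold change was 1.44 ± 0.50 (SE), a 2.72-fold rise with edgeR adjusted p 0.0269. That call was lost when DT replicate 3 (log2 1.31, adjusted p 0.0685), DT replicate 4 (1.35, 0.057), saline replicate 2 (1.33, 0.0735) or saline replicate 4 (1.24, 0.0862) was left out. It stood in the other 4 of 8 such fits.

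Nts (Entrez 67405; chromosome 10, 102481756 to 102490418, GRCm38) encodes neurotensin, made by endocrine cells of the lower small intestine. It had only 9, 23, 21 and 26 counts in the DT libraries at 24 h, against 6, 9, 5 and 3 counts in saline. As CPM these were 0.771, 0.808, 0.776 and 1.27 in DT, against 0.416, 0.675, 0.353 and 0.231 in saline, without overlap. The log2 fold change was 1.1 ± 0.43, a 2.15-fold rise with edgeR adjusted p 0.0468. This call is fragile: it stood in 1 of 8 fits with a library left out. It was lost without DT replicate 1 (log2 1.13, adjusted p 0.0529), 2 (1.17, 0.0584), 3 (1.19, 0.0524) or 4 (0.90, 0.134), and without saline replicate 1 (1.09, 0.0895), 3 (1.0, 0.113) or 4 (0.90, 0.143).

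Tac1 (Entrez 21333; chromosome 6, 7555061 to 7562978, GRCm38) encodes the tachykinins substance P and neurokinin A, which enteroendocrine cells that make serotonin and enteric neurons both produce. At 24 h it had 1.63, 1.69, 0.924 and 1.91 CPM in DT, against 3.75, 2.48, 2.61 and 5.32 CPM in saline. Here every DT library lay below every saline library, the opposite order to Cck and Nts. Tac1 fell by 1.21 on the log2 scale (SE 0.29), which is 2.32-fold, with edgeR adjusted p 0.00184. The call stood in 8 of 8 fits with a library left out, with adjusted p between 0.00127 and 0.0136. At 48 h the values were 2.10, 1.61, 1.34 and 0.821 CPM in DT and 1.91, 2.52, 2.24 and 2.94 CPM in saline, a log2 fold change of -0.74 ± 0.30 that did not pass (adjusted p 0.115), or -0.70 (0.159) without DT replicate 3. All 4 DT libraries lay below the saline mean there, but DT replicate 1 overlapped the saline range. At 96 h the log2 fold change was -0.41 ± 0.29 (adjusted p 0.566).

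Markers of enteric neurons were set beside Tac1. The 12 markers summed to 17.4 to 26.6 CPM in DT and 22.6 to 30.1 CPM in saline at 24 h, to 19.7 to 30.8 CPM in DT and 27.0 to 33.0 CPM in saline at 48 h, and to 23.9 to 28.8 CPM in DT and 30.7 to 32.7 CPM in saline at 96 h. Of the 7 that were tested, 2 (28.6%) were lower at 24 h, beside 18.9% of all genes, and none was higher. The median log2 fold change of the 7 was -0.08 at 24 h, beside -0.004 for all genes tested. Uchl1, a ubiquitin hydrolase of neurons and endocrine cells, fell by 0.79 on the log2 scale (adjusted p 0.00238), and Prph, a neuronal intermediate filament, fell by 0.62 (adjusted p 0.0498). The Prph call was lost without DT replicate 2 (adjusted p 0.085), 3 (0.145) or 4 (0.0617) and without saline replicate 1 (0.186), 2 (0.0934) or 4 (0.0698). It was also lost in DESeq2 (0.0664), in limma voom (0.0594), with scaling by RLE (0.0506) or upper quartile (0.0568), with no low-count filter (0.116) or a stricter one (0.0537) and in a fit of the 24 h libraries alone (0.0992). Elavl4, an RNA-binding protein gene of neurons and a defining marker, had at most 10 counts in any library. The part of these markers in the Tac1 result was not tested.

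The other 7 genes did not pass the test at 24 h. Chga had 81.3, 77.0, 49.2 and 148 CPM in DT, against 96.1, 39.2, 87.6 and 52.3 CPM in saline, and Chgb 236, 215, 150 and 444 CPM in DT, against 263, 131, 271 and 174 CPM in saline. In both, DT replicate 4 held the highest value and the other DT libraries lay within the saline range. Their log2 fold changes were 0.37 ± 0.43 (adjusted p 0.536; 95% interval -0.48 to 1.21) and 0.31 ± 0.42 (adjusted p 0.591; -0.51 to 1.14). Without DT replicate 4 the value for Chgb was -0.07 and that for Chga was -0.00. Tph1, encoding the tryptophan hydroxylase that starts serotonin synthesis in the gut, averaged 8.33 ± 3.08 CPM in DT and 7.32 ± 1.21 CPM in saline (SD, n = 4 each), a log2 fold change of 0.17 ± 0.26. Pyy averaged 6.61 ± 1.87 CPM in DT and 5.04 ± 1.84 CPM in saline, a log2 fold change of 0.38 ± 0.28 (adjusted p 0.305).

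Among the lineage factors, Neurog3, the factor that commits a progenitor to the endocrine fate, had 1.20, 1.76, 2.14 and 2.93 CPM in DT at 24 h, against 2.98, 1.35, 3.25 and 1.39 CPM in saline. The 2 groups overlapped almost fully, with a log2 fold change of -0.14 ± 0.49 and an interval of -1.1 to 0.82. Neurod1, which acts downstream of Neurog3, averaged 5.05 ± 2.98 CPM in DT and 4.32 ± 2.20 CPM in saline (log2 0.22 ± 0.47; interval -0.70 to 1.14), a value that was -0.26 without DT replicate 4. Insm1, a zinc finger transcription factor needed for endocrine differentiation, was measured more tightly, at 4.63, 4.99, 4.62 and 7.38 CPM in DT and 6.80, 6.15, 5.50 and 6.63 CPM in saline. Of its 4 DT libraries 3 lay below all saline libraries and replicate 4 lay above them, giving -0.21 ± 0.18 (adjusted p 0.371).

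At 48 h edgeR called 0 of the 10 genes, against 11.3% of all genes tested. That share is 1979 genes, and without DT replicate 3 the number was 2741. An unadjusted p under 0.05 was reached by 3, Insm1, Tac1 and Pyy, and DESeq2 and limma each called 1 member. Shares of all genes with unadjusted p under 0.05, or called by DESeq2 or limma for DT against saline, are not given here. Such counts of members, at this or another time, therefore have no background beside them. Insm1 was nearest to the threshold, with 4.21, 4.30, 3.02 and 2.93 CPM in DT and 4.47, 5.26, 5.27 and 6.08 CPM in saline. It was the 1 member of 10 whose groups did not overlap at 48 h, a property of 15.8% of all genes. Its log2 fold change was -0.56 ± 0.18 with edgeR adjusted p 0.0516, a value just outside the threshold that fell to 0.0344 in DESeq2 and 0.0375 in limma voom. Leaving out DT replicate 1 (adjusted p 0.0461) or 2 (0.0494) also brought it under 0.05, and leaving out the library that stood apart, DT replicate 3, gave -0.47 with 0.11.

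Pyy (Entrez 217212; chromosome 11, 102106676 to 102107832, GRCm38), which encodes the satiety peptide YY of the lower gut, had 5.41, 4.12, 2.68 and 5.60 CPM in DT at 48 h, against 2.86, 2.97, 2.66 and 3.13 CPM in saline. DT replicate 3 alone lay within the saline range. The log2 fold change was 0.63 ± 0.29 (adjusted p 0.171), and 0.83 (adjusted p 0.0575) without that replicate. Cck had 5.47, 4.03, 0.536 and 2.5 CPM in DT, against 1.91, 2.26, 3.75 and 1.53 CPM in saline. Its DT values spanned the whole saline range, with replicate 3 lowest, for a log2 fold change of 0.40 ± 0.52, or 0.75 without that replicate (adjusted p 0.301). Replicate 3 of the DT group also held the lowest Chga value of all 24 libraries, 18.7 CPM. Neurog3 had its widest spread here, with 4.51, 5.37, 1.01 and 1.07 CPM in DT and 1.49, 0.964, 2.85 and 1.53 CPM in saline, so that 2 DT libraries lay above and 2 near the bottom of the saline range (log2 0.78 ± 0.49, adjusted p 0.33). Without DT replicate 3 its value was 1.07 (adjusted p 0.133).

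At 96 h edgeR called 1 of the 10 genes, Pyy, against 4.03% of all genes tested and 1.01% called as higher in DT. Pyy had 7.20, 4.12, 9.42 and 7.19 CPM in DT, against 3.81, 2.42, 4.15 and 2.35 CPM in saline. In DT, 3 libraries lay well above the saline range, and the lowest, replicate 2, fell just short of the highest saline library. The log2 fold change was 1.11 ± 0.29, a 2.16-fold rise with edgeR adjusted p 0.0302. The call stood in 3 of 8 fits with a library left out. It was lost without DT replicate 1 (log2 1.09, adjusted p 0.0659), 3 (0.97, 0.0806) or 4 (1.11, 0.0681) and without saline replicate 2 (1.01, 0.0807) or 4 (0.99, 0.105). It was also lost in limma voom (1.04, 0.0576) and in a fit of the 96 h libraries alone (1.12, 0.0518), and limma called 0 of the 10 members at this time while DESeq2 called 1. None of the 10 members had groups free of overlap at 96 h, against 11.6% of all genes.

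Several other members had positive values at 96 h that rested on 1 library. Chgb had 153, 118, 432 and 136 CPM in DT, against 171, 89.1, 154 and 113 CPM in saline. Apart from DT replicate 3 the groups overlapped throughout. The log2 fold change of 0.66 ± 0.43 became 0.07 without that library, and for Chga 0.66 ± 0.44 became 0.20, for Neurod1 0.72 ± 0.48 became 0.23, and for Cck 0.69 ± 0.51 became 0.25. Tph1 had 8.66, 5.79, 12.3 and 7.38 CPM in DT, against 6.14, 6.08, 6.46 and 4.07 CPM in saline, with 1 DT library inside the saline range (log2 0.57 ± 0.26, adjusted p 0.28). Nts (-0.31 ± 0.40), Insm1 (-0.10 ± 0.18) and Neurog3 (0.03 ± 0.51) did not pass either.

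**Figure D2:**
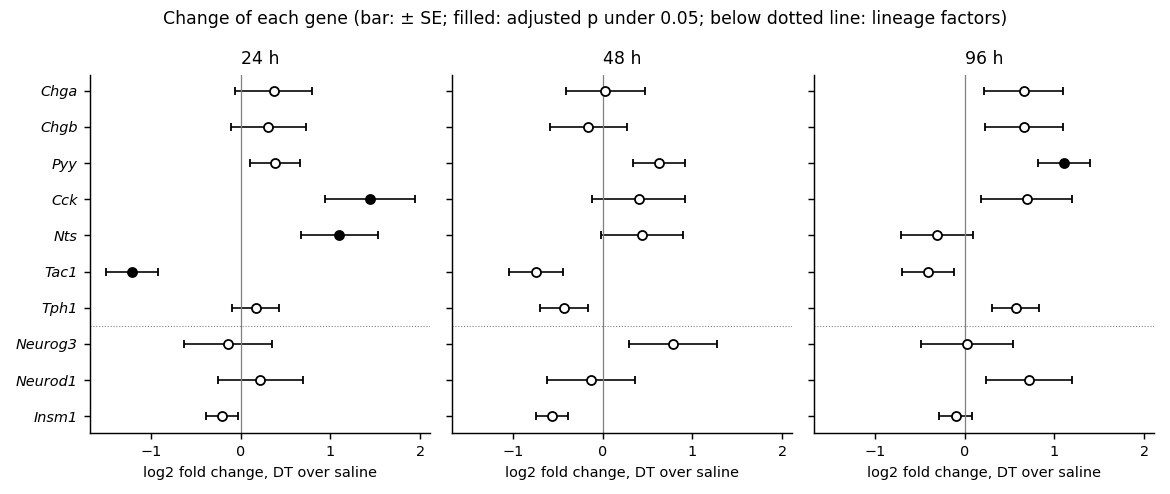
Log2 fold change of DT over saline for each gene at 24, 48 and 96 h, with bars of 1 SE, filled where adjusted p was under 0.05, and the 3 lineage factors under the dotted line. Filled points are Cck, Nts and Tac1 at 24 h and Pyy at 96 h, and no lineage factor is filled at any time.

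Read as 2 sets, the 7 hormones and secretory products had median log2 fold changes of 0.37 at 24 h, 0.03 at 48 h and 0.66 at 96 h, and the 3 lineage factors -0.14, -0.13 and 0.03. The median of all genes tested was -0.004, -0.002 and -0.006 at these times. Of the hormone set, 6 of 7 values were above 0 at 24 h, 4 at 48 h and 5 at 96 h. Of the factors the numbers were 1, 1 and 2 of 3. These summaries moved with 1 DT library at each time. Without DT replicate 4 at 24 h the hormone median was 0.00 with 3 of 7 values above 0, and the factor median -0.36 with 0 of 3. Without DT replicate 3 at 48 h the medians were 0.31 (5 of 7) and 0.12 (2 of 3), and without DT replicate 3 at 96 h they were 0.20 (5 of 7) and -0.23 (1 of 3). The sets are small and their members share libraries, so these are descriptions without a test. The single hormones did not share 1 direction: Cck and Tac1 passed in opposite directions at 24 h, and Pyy, called at 96 h, was not called at 24 h.

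Whether the DT effect differed between times was tested directly by interaction contrasts. For 48 h against 24 h edgeR called 0 of 10 members (smallest adjusted p 0.478; 0 with unadjusted p under 0.05), against 2.89% of all genes. For 96 h against 24 h it called 0 (smallest adjusted p 0.126, for Nts; 1 with unadjusted p under 0.05), against 11.9% of all genes. Across all 3 times jointly it called 0 (smallest 0.211, for Tph1; 1 with unadjusted p under 0.05), against 7.97%. DESeq2 and limma called 0 in each. The Cck rise at 24 h, for example, was larger than the 48 h value by 1.04 on the log2 scale with an SE of 0.73, and the Pyy value at 96 h exceeded that at 24 h by 0.73 with an SE of 0.40. So a call at 1 time and none at another does not show a change of the effect with time for these genes.

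The saline libraries themselves were compared over time. All 10 members had lower values in saline at 48 h than at 24 h, with a median log2 fold change of -0.38, and 9 of 10 at 96 h, with a median of -0.41. None passed the test: edgeR, DESeq2 and limma each called 0 at both times, with 1 member (Pyy) at 48 h and 2 (Pyy and Insm1) at 96 h at an unadjusted p under 0.05. Of all genes, 0.355% were called for 48 h and 3.22% for 96 h against 24 h. The lowest value was -0.80 ± 0.30 for Pyy at 48 h (adjusted p 0.343), and the 1 value above 0 was 0.85 ± 0.45 for Nts at 96 h (adjusted p 0.325).

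The members also varied together from library to library. Chga was taken as the common measure, since it is shared by most enteroendocrine cells, and log2 CPM values of the other 9 members were correlated with it over the 24 libraries, with p from 100000 permutations within groups and Benjamini-Hochberg adjustment over the 9 relations. Chgb followed Chga most closely, with Pearson's r 0.97 and Spearman's rho 0.94 (permutation p 1e-05 for both, the smallest these permutations can give; adjusted 9e-05 and 6e-05). Neurod1 came next with r 0.92 and rho 0.89 (permutation p 2e-05 for both; adjusted 9e-05 and 6e-05). Without the 2 libraries whose Chga lay farthest from the median, r was 0.96 for Chgb and 0.88 for Neurod1. Chga and Chgb are the pair whose start regions, printed above, both hold TGACGT, which is a description and was not tested against their levels. The window of Neurod1, next in r, held 0 matches of TGACG or TGACGT, and the first window of Tph1 held 0 of TGACGT.

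Tph1 had r 0.84 and rho 0.75 (permutation p 4e-05 and 2e-05; adjusted 0.00012 and 6e-05), and Cck r 0.80 and rho 0.75 (0.00049 and 0.00037; adjusted 0.000882 and 0.000833). Pyy had r 0.76 and rho 0.69 (permutation p 0.00017 and 0.00146; adjusted 0.000383 and 0.00219). Without the 2 farthest libraries r was 0.73 for Tph1, 0.68 for Cck and 0.72 for Pyy. For Neurog3 (r 0.60, rho 0.60; permutation p 0.00116 and 0.0038; adjusted 0.00154 and 0.00489) and Insm1 (r 0.60, rho 0.51; 0.0012 and 0.00095; adjusted 0.00154 and 0.00171) the relation was looser, and r fell to 0.55 and 0.38 without those 2 libraries. Tac1 (r 0.26, rho 0.22; permutation p 0.0651 and 0.195; adjusted 0.0732 and 0.219) and Nts (r 0.12, rho 0.08; permutation p 0.643 and 0.716, the same after adjustment) did not follow Chga past 0.05, with r 0.23 and -0.03 without the 2 libraries. Within groups, correlating the deviations from the group means, r was 0.97 for Chgb, 0.93 for Neurod1, 0.84 for Tph1, 0.77 for both Cck and Pyy, 0.73 for Neurog3, 0.72 for Insm1, 0.53 for Tac1 and -0.08 for Nts. No p was taken for these within-group values. The permutation p above compared r over all 24 libraries, whose part between groups the permutations keep fixed. The p for Tac1 thus does not test its within-group r of 0.53. All values of a library share its depth and its makeup of cells.

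**Figure D3:**
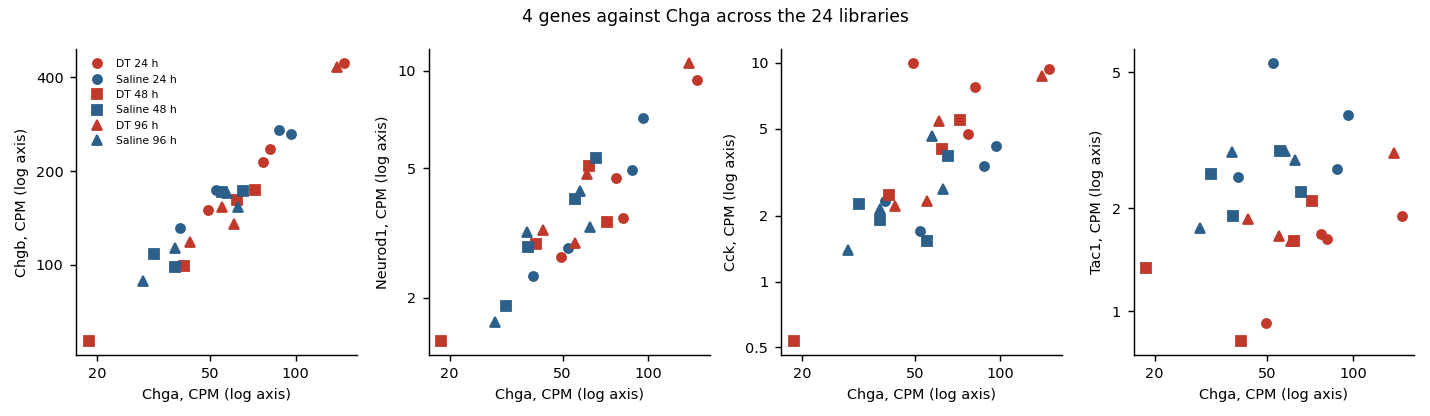
CPM of Chgb, Neurod1, Cck and Tac1 against CPM of Chga on log axes, 1 point per library (DT red, saline blue; circles 24 h, squares 48 h, triangles 96 h). Chgb and Neurod1 run close to a line with r 0.97 and 0.92, most DT libraries of 24 h lie high for Cck, and for Tac1 (r 0.26) most lie below saline libraries of similar Chga.

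Because Chga differed up to several-fold between libraries of a group, each other member was also expressed per 1000 Chga counts, a measure chosen after values were seen. Tac1 per 1000 Chga was 20, 21.9, 18.8 and 12.8 in DT at 24 h, against 39.0, 63.1, 29.8 and 102 in saline. At 96 h it was 30.2, 43.8, 20.8 and 26.4 in DT, against 51.2, 60.8, 44.3 and 77.9 in saline. The groups did not overlap at either time. Cck per 1000 Chga was 94.8, 61.6, 202 and 62.9 in DT at 24 h, against 43.3, 59.3, 38.6 and 32.4 in saline, also without overlap. In each of these 3 cases the two-sided exact permutation p was 0.0286, the smallest that 4 against 4 libraries can give, and 0.257 after adjustment over the 27 ratios examined. Chgb per 1000 Chga was steady, at 2930 ± 113 in DT and 3130 ± 286 in saline at 24 h (SD, n = 4 each). Pyy per 1000 Chga at 96 h averaged 103 ± 27.7 in DT and 69.7 ± 9.40 in saline and overlapped (exact permutation p 0.0571, adjusted 0.385).

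The genes most like each member in log2 CPM over the 24 libraries were sought among 14802 genes with an assigned symbol, as a description without a test. For Chga they were Chgb (r 0.97), Scg2 (0.96) and Scg5 (0.93), all 3 secretory granule proteins. For Chgb they were Chga, Scg2 (0.96) and Ptprn2 (0.93), a phosphatase-like protein of dense-core granules. For Neurod1 they were Sis (0.93), the brush-border sucrase-isomaltase, then Scg2 (0.93) and Chga (0.92). For Tph1 they were Chgb (0.85), Cryba2 (0.84) and Chga (0.84). The lists for the remaining members held no other member: Hepacam2, Rbm38 and Calml4 for Pyy (0.83 to 0.84), Kcnk1, Cox7c and Sod1 for Cck (0.84 to 0.86), and Gper1, Enpp5 and Btrc for Tac1 (0.84 to 0.87). For Neurog3 they were Tmed6, Pxylp1 and Prxl2b (0.76 to 0.77) and for Insm1 Laptm4b, Tmem218 and Anxa4 (0.87 to 0.88). These r run over all 24 libraries and so include differences between groups. On deviations from group means, r was 0.67 to 0.70 for Tac1, 0.70 to 0.74 for Pyy and 0.79 to 0.86 for Cck. It was 0.75 to 0.84 for Neurog3, 0.79 to 0.84 for Insm1 and 0.81 to 0.84 for Tph1. For Chga, Chgb and Neurod1 it was 0.93 to 0.97. Nts averaged under 1 CPM in every group and was not searched.

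Around the members, 7 further lists of enteroendocrine biology with 124 entries were examined, of which 89 passed the filter. At 24 h 9 of the 89 were higher and 12 lower in DT, 23.6% in all beside 38.7% of all genes, with a median log2 fold change of -0.04. At 48 h 2 were higher and 6 lower (8.99%, beside 11.3% of all genes), and at 96 h 2 higher and 3 lower (5.62%, beside 4.03%), with medians of -0.07 and 0.18. By list, the share called at 24 h ran over 12.5% to 42.9%.

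Among 15 other peptide hormone genes 7 passed the filter, and at 24 h 2 rose and 1 fell, 42.9% in all beside 38.7% of all genes. Gal, encoding galanin, had 8.74, 5.76, 4.18 and 6.65 CPM in DT at 24 h, against 2.29, 1.05, 1.69 and 1.93 CPM in saline. All DT libraries lay above all saline libraries, and Gal rose 3.57-fold (log2 1.84 ± 0.37, edgeR adjusted p 0.000389). Vgf, whose product is a granin-like hormone precursor, had 6.26, 9.38, 4.99 and 9.19 CPM in DT, against 2.78, 1.88, 3.53 and 1.62 CPM in saline, again without overlap (log2 1.60 ± 0.36, adjusted p 0.00106). Both calls stood in all 8 fits with a library left out. Nmb, encoding neuromedin B, fell by 0.67 (adjusted p 0.0113), a call lost without DT replicate 3 (-0.54, 0.0523). At 48 h Gal was at 1.13 ± 0.39 (adjusted p 0.0632), and it passed without DT replicate 3 (1.46, 0.00302) and without saline replicate 2 (1.48, 0.0374). It also passed at 48 h in DESeq2 (1.14, 0.0353). At 96 h it was at 1.30 ± 0.42 (adjusted p 0.0844). There it passed in DESeq2 (1.32, 0.0304) and in a fit of the 96 h libraries alone (1.31, 0.0322). Gcg, Gip, Sst, Insl5, Gast, Ucn3, Grp and Uts2b did not pass the filter on low counts.

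In the list of amine synthesis and transport, which includes genes of the serotonin pathway that Tph1 opens, 7 of 11 genes passed the filter. Slc18a1, the monoamine transporter that loads serotonin into endocrine granules, had 69.8, 61.1, 49.7 and 95.5 CPM in DT at 24 h, against 125, 119, 122 and 90.7 CPM in saline. DT replicate 4 overlapped the lowest saline library, and Slc18a1 fell by 0.73 (SE 0.18, adjusted p 0.00244). Tph2, the tryptophan hydroxylase better known from the brain, rose by 0.49 on the log2 scale (SE 0.13, adjusted p 0.00308), at 14.5 ± 2.32 CPM in DT and 10.3 ± 0.303 CPM in saline. Slc18a2, the second vesicular monoamine transporter, rose at 48 h by 0.77 (adjusted p 0.0153), a call lost without DT replicate 4 (0.66, 0.0739) or saline replicate 4 (0.70, 0.0518). Tph1 itself did not pass at any time. At 24 h the called genes of this list, Slc18a1 and Tph2, went in opposite directions. Mast cells also use Tph1. Of 13 mast cell markers 11 were tested: Ms4a2, a chain of the IgE receptor, averaged 0.240 ± 0.264 CPM in DT and 24.1 ± 9.87 CPM in saline at 24 h and was called lower at each time, as was Tpsb2, a tryptase, while Cpa3, the defining mast cell protease, averaged under 1 CPM in every group. Kit, the receptor for stem cell factor, was called higher at 24 h, when the list held 1 higher and 2 lower genes and had a median log2 fold change of -0.05. These calls were 27.3% of the 11 tested, beside 38.7% of all genes. The summed level of the 13 was 89.3 to 185 CPM in DT and 117 to 166 CPM in saline at 24 h, 86.6 to 134 CPM in DT and 116 to 132 CPM in saline at 48 h, and 122 to 169 CPM in DT and 114 to 180 CPM in saline at 96 h. Their part in the Tph1 values was not tested.

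Of 27 tested genes for prohormone processing and granule proteins, 1 was higher and 5 were lower at 24 h, 22.2% in all beside 38.7% of all genes. Pam, the enzyme that amidates the ends of peptide hormones, averaged 400 ± 57.3 CPM in DT and 644 ± 65.9 CPM in saline and fell by 0.69 (SE 0.11, adjusted p 3.63e-05), without overlap. It was also called lower at 48 h (-0.41, adjusted p 0.0197) and 96 h (-0.42, 0.0329). The 48 h call was lost without DT replicate 1 (-0.37, 0.0624), 2 (-0.32, 0.0873) or 4 (-0.40, 0.0557) and without saline replicate 2 (-0.38, 0.0553) or 4 (-0.40, 0.0572). That at 96 h was lost without any 1 of the 4 DT libraries (adjusted p 0.0525, 0.0911, 0.155 and 0.0601 in replicate order) and without saline replicate 1 (0.0903), 3 (0.0518) or 4 (0.095). Syt7, a calcium sensor of granule release, fell by 0.66 at 24 h (adjusted p 0.00371), and Unc13a, a vesicle priming factor, by 0.70 (adjusted p 0.00477). Both were also called lower at 48 h, Syt7 at -0.59 (edgeR adjusted p 0.0278) and Unc13a at -0.70 (0.0148). The 48 h call of Syt7 was lost without DT replicate 4 (0.111) or saline replicate 1 (0.0753) or 4 (0.0725). Cpe, the carboxypeptidase that trims prohormones, fell by 0.37 (adjusted p 0.0242), a call lost without DT replicate 1 (-0.32, 0.0656), 2 (-0.36, 0.056) or 4 (-0.33, 0.0713) or saline replicate 1 (-0.32, 0.0679). Scg2 and Scg5, the genes most like Chga, were not called.

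**Figure D4:**
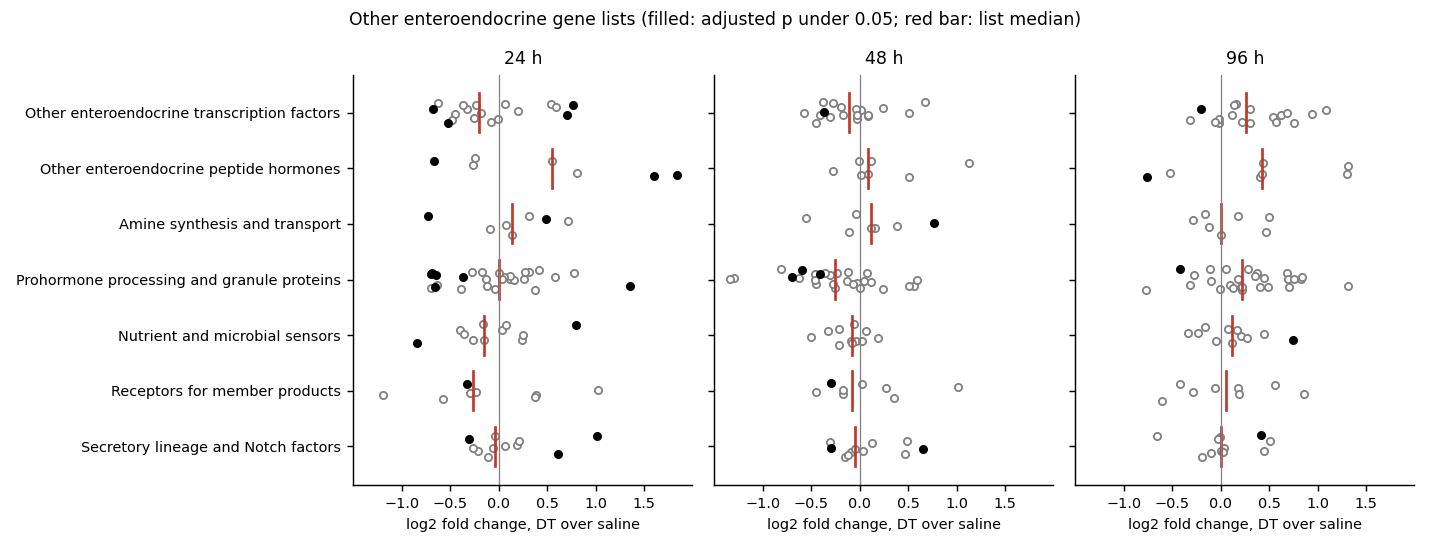
Log2 fold change of DT over saline for each tested gene of 7 further lists at 24, 48 and 96 h, filled where adjusted p was under 0.05, with a red bar at each list's median. Called genes lie on both sides of 0 at 24 h, where 9 are higher and 12 lower, and they are few at 96 h, where 2 are higher and 3 lower.

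Of 18 tested genes listed as transcription factors of the lineage other than the 3 members, 2 were higher and 2 lower at 24 h. That is 22.2% in all beside 38.7% of all genes, and the list also holds the receptor gene Insrr. Foxa1, a pioneer factor of gut endoderm with a part in endocrine differentiation, averaged 149 ± 3.73 CPM in DT and 214 ± 6.86 CPM in saline, with little spread and no overlap, and fell by 0.52 (SE 0.05, adjusted p 3.55e-08). It was lower at 48 h by 0.37 (adjusted p 8.72e-05) and at 96 h by 0.20 (adjusted p 0.0192). The 96 h call was lost without DT replicate 2 (0.0899), 3 (0.0666) or 4 (0.074) and without saline replicate 1 (0.0666) or 3 (0.0822). Mnx1, a homeobox factor, fell by 0.68 at 24 h (adjusted p 0.0037). Etv1, an ETS family factor, rose by 0.77 (adjusted p 0.0076), and Hhex, a homeobox factor, by 0.70 (adjusted p 0.00815), a call lost without DT replicate 4 (0.47, 0.0533).

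Among sensors, Tas1r3, a subunit of the sweet and umami taste receptors, rose at 24 h by 0.80 (adjusted p 0.00448), at 18.3 ± 3.33 CPM in DT and 10.5 ± 1.87 CPM in saline. It was also called higher at 96 h (0.75, adjusted p 0.0414). The 96 h call was lost without DT replicate 1, 2, 3 or 4 or saline replicate 2, 3 or 4. It was also lost in a fit of the 96 h libraries alone (0.76, 0.111) and with no low-count filter (0.76, 0.061). Gper1, a membrane oestrogen receptor and the gene most like Tac1, fell by 0.84 (adjusted p 0.00147), at 6.40 ± 2.14 CPM in DT and 11.4 ± 1.46 CPM in saline. Its r with Tac1 was 0.87 over all 24 libraries, which includes differences between groups, and 0.68 within groups. Of 8 tested receptors for the members' products only Sort1, a sorting receptor that also binds neurotensin, was called at 24 h, lower by 0.33 (adjusted p 0.00205). Among secretory lineage and Notch factors, Dll1, the Notch ligand of secretory progenitors, had 15.6, 14.6, 13.8 and 13.2 CPM in DT at 24 h, against 6.66, 6.52, 8.18 and 6.94 CPM in saline. It rose 2.02-fold (log2 1.01 ± 0.12, adjusted p 8.04e-07), and also at 48 h (0.65 ± 0.12, adjusted p 0.00124), but not at 96 h (0.03 ± 0.12). Spdef, a factor of goblet and Paneth cells, rose by 0.61 at 24 h (adjusted p 0.0033), and Notch1 fell by 0.31 (adjusted p 0.00458). Spdef was the 1 of 8 goblet cell markers called higher at 24 h, against 4 called lower (Fcgbp, Spink4, Muc2 and Tff3), with a list median of -1.05 on the log2 scale. Of 6 Paneth cell markers 3 were called lower (Ang4, Itln1 and Defa24) and 0 higher, with a median of -0.77. Of all genes tested, 19.9% were called higher and 18.9% lower at 24 h. Hes6, Gfi1 and the other tested genes of the secretory lineage and Notch list were not called at 24 h. Hes1 was called higher at 96 h (0.42, edgeR adjusted p 0.0124), a call lost without saline replicate 4 (0.38, 0.0575). Notch1 was called lower at 48 h as well (-0.30, adjusted p 0.0228). That call was lost without DT replicate 1, 2 or 4 or saline replicate 1 or 4, and in a fit of the 48 h libraries alone (-0.29, 0.135). Neurog3 itself did not pass at any time.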

How the data were processed

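Polyadenylated RNA of sorted tumour cells was sequenced in 24 libraries, 4 in each of 6 groups, grouped by the treatment and time in the labels. The authors deposited 1 table per library. Its counts are uniquely aligned reads per gene model and its nRPKM values are RPKM that the authors adjusted by size factors, both per the file headers. GSNAP and GRCm38 are named in the submitters' processing notes, while the strand setting, like the annotation and versions, is not given in the sources used here. Entrez identifiers took symbols, coordinates and start-region sequences from RefSeq tables of GRCm38.p6, which matched 31049 of 36528 (85.0%). Without a stated strand, reads of overlapping antisense genes cannot be told apart.

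Deposited counts were tested with edgeR 4.0.16 (R 4.3.3): TMM scaling, filtering by expression within groups, 1 fit of all 24 libraries with a mean per group, robust quasi-likelihood test, two-sided, Benjamini-Hochberg over 17468 genes, threshold 0.05. SE is the size of the log2 fold change divided by the square root of F, and CPM used TMM library sizes and log2 CPM a prior count of 2. The most-like genes were taken among those tested. Depths of 10.9 to 27.7, in units of 1e6 counts, limit genes such as Nts, which had 2 to 26 counts per library. Replicates of a group differed by more than sampling noise, with a smallest chi-square per degree of freedom of 4.24. The procedure was tested on simulated data with the same spread for every gene, which does not cover genes of wider spread such as Chga. Alternatives were DESeq2 1.42.0, limma 3.58.1 voom, scaling by RLE or upper quartile, 2 other filters, a replicate block, a fit of the compared libraries only, leaving out each library and a threshold of 0.1. The rule for naming took all members, up to 5 called genes of each further list by smallest p, the 3 most-like genes, Lgr5, defining markers and up to 3 called markers per cell type. Genes it named were printed in part. The rule for the members uses names and no measured value, but the members and all lists were proposed with earlier results of these data known, so no p-value is adjusted over a list and no list was tested as a set.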

Additional observations from a re-analysis of the deposited data

Results flagged for a closer look

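In 5 of the 60 gene and group combinations 1 library lay far from the other 3 of its group by Dixon's test at the 95% level. Chance gives about 1 in 20. Chgb was 432 CPM in replicate 3 of DT at 96 h, against 118 to 153 CPM in the other DT libraries of that time, and this library was also the highest of its group for every other member except Nts. Nts was 1.27 CPM in replicate 4 of DT at 24 h, against 0.771 to 0.808 CPM in the others. Insm1 was 7.38 CPM in the same library, against 4.62 to 4.99 CPM. Tac1 was 1.76 CPM in replicate 2 of saline at 96 h, against 2.77 to 2.95 CPM in the others. Tph1 was 4.07 CPM in replicate 4 of saline at 96 h, against 6.08 to 6.46 CPM.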

How the results depend on the processing

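No called value changed sign under any alternative. Followed here were the 10 genes' log2 fold changes for DT against saline and for the 48 h and 96 h interaction contrasts. The comparisons of saline over time and the joint test of all times were not included. Over all alternatives, 956 of these values stayed on their side of the threshold, 22 lost a call, 5 gained one and 1 moved. Of the same values, 28 that were not called changed sign, among them 9 of Neurog3, 8 of Chga, 4 of Neurod1 and 3 of Chgb. Under scaling by RLE or upper quartile no member's call changed. The 4 member calls differed in firmness: Tac1 at 24 h held under every alternative, whereas Cck and Nts at 24 h were lost without a filter on low counts (adjusted p 0.0524 and 0.0535), Nts also in DESeq2 (0.0522), and Pyy at 96 h in limma voom and with the libraries of that time alone. Members called at 24 h numbered 1 without a filter and 1 to 2 with a library left out. At 48 h they numbered 1 with adjusted p under 0.1, in DESeq2 and in limma, and 0 to 1 with a library left out. At 96 h they numbered 0 in limma and with the libraries of that time alone, and 0 to 1 with a library left out.

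Counts over all genes moved more. DT against saline gave 945 genes at 48 h with the libraries of that time alone, against 1979, and 1101 at 96 h with adjusted p under 0.1, against 704. For the DT effect at 48 h against 24 h the count of 505 became 838 with adjusted p under 0.1 and 772 in DESeq2, and at 96 h against 24 h 2079 became 3194 with adjusted p under 0.1. For saline at 96 h against 24 h the count of 563 became 1084 (adjusted p under 0.1), 321 (no filter), 978 (DESeq2) and 220 (limma), and at 48 h the count of 62 became 100 (adjusted p under 0.1) and 156 (DESeq2). With a library left out the counts ran over 5961 to 6729 at 24 h, 1154 to 2741 at 48 h, 359 to 680 at 96 h, 272 to 865 and 1577 to 2369 for the DT effect at 48 h and 96 h against 24 h, 840 to 2070 among all times, and 38 to 87 and 91 to 1218 for saline at 48 h and 96 h. The lowest of these came without DT replicate 4 at 48 h, DT replicate 2 at 96 h, saline replicate 2 at 24 h for the DT effect at 48 h and among times, saline replicate 2 at 48 h and saline replicate 2 at 96 h. The cause of these moves was not tested.

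Replicate numbers of the labels did not pair the samples: deviations of same-numbered DT and saline libraries correlated above 0.1 in 2 of 12 pairs, with a range of -0.36 to 0.13. With the replicate number as a block, 6540 genes were called at 24 h, 1717 at 48 h and 589 at 96 h, and calls were lost for Nts at 24 h (adjusted p 0.0655), Prph at 24 h (0.0669), Pam at 96 h (0.0526) and Lgr5 at 96 h (0.0665). Low counts limit Nts, Neurog3 and Tac1 most, and with 4 libraries a group the intervals for Chga, Chgb and Neurod1 span more than a 2-fold change.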
